A study of Mus musculus with 18 samples.

Results

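The CC chemokines Ccl2, Ccl3, Ccl4, Ccl6, Ccl7, Ccl9 and Ccl12 were followed through microglial development, in single cells and in whole libraries. They are 7 of the 27297 gene rows counted, and they were chosen by name, with earlier results of these data known. Each of 5 members has a row of its own. The Ccl3 row also joins the transcript AK137525, and the Ccl4 row joins an older name of the same gene. The libraries come from mice of the CX3CR1-GFP+ C57BL/6J strain, in which a green fluorescent protein reporter marks cells that express the fractalkine receptor Cx3cr1, and no animal was treated. MARS-seq, which sorts 1 cell into a well and tags every captured polyadenylated transcript near its 3' end with a unique molecular identifier (UMI), gave 18 libraries. They fall into yolk sac at embryonic day 12.5 (E12.5; 4 libraries, 671 cells), brain at E12.5 (4 libraries, 718 cells), brain at embryonic day 18.5 (E18.5; 6 libraries, 992 cells) and adult brain (4 libraries, 631 cells). The sources used here do not state the age of the adult animals. The sort at E12.5, in both tissues, took cells carrying CD45, CD11B and the reporter, whereas the sorts at E18.5 and in the adult took cells with intermediate levels of CD45 and CD11B, which means that gate and age differ together.

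CC chemokines are small secreted proteins with a pair of adjacent cysteines, and they attract leukocytes through G protein-coupled receptors. Ccl3 and Ccl4, also called macrophage inflammatory proteins, attract macrophages and lymphocytes, and Ccl3 binds Ccr1. Ccl2, Ccl7 and Ccl12 attract monocytes through Ccr2. Ccl6 and Ccl9 act mainly through Ccr1 and belong to a branch of the family that is prominent in rodents. Microglia and macrophages make these chemokines after inflammatory stimulation, and NF-kappaB and AP-1 factors are known to drive the transcription of several of them.

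All 7 genes lie on mouse chromosome 11, in 2 clusters. In RefSeq order the first reads Ccl2, Ccl7, Ccl11, Ccl12, Ccl8 and Ccl1. After a gap of over 1 Mb the second reads Ccl5, Ccl9, Ccl6, Ccl3 and Ccl4. The 250 bases before the annotated start of Ccl3, Ccl6 and Ccl9 are shown because these neighbours are the members with the most UMIs in the second cluster. At full depth their pairs shared more cells than expected, as described below. At an equal depth per cell fewer cells held both members of a pair, and the excess varied. For example, 9 cells held Ccl6 and Ccl9 at E18.5 against 5.72 expected, and 1 held Ccl3 and Ccl6 in the adult against 2.05. The bases shown are from RefSeq (build GRCm38.p6), all on the minus strand of chromosome 11 and written 5′ to 3′. They lie at chr11:83649379-83649628 for Ccl3, chr11:83593088-83593337 for Ccl6 and chr11:83578637-83578886 for Ccl9. Capitals mark matches, on either strand, to TATAA (the core of a TATA box), TGANTCA (bound by AP-1), GAGGAA (bound by PU.1, a transcription factor of macrophages) and the NF-kappaB consensus.
Ccl3: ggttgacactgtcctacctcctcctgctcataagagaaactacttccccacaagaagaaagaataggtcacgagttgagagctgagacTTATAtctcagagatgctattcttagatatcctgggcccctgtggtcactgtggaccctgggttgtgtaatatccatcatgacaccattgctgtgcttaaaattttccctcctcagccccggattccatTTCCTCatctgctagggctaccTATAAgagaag
Ccl6: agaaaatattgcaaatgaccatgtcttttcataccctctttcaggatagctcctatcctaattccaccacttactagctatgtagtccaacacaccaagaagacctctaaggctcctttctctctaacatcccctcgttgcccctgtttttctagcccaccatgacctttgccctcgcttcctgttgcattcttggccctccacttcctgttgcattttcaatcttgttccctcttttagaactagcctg
Ccl9: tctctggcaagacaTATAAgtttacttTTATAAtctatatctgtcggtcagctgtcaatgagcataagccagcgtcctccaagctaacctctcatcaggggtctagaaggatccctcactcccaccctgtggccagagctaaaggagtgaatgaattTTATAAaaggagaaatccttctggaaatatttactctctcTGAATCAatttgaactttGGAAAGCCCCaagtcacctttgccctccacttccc

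The Ccl9 window held an AP-1 match 53 to 47 bases before the start and an NF-kappaB match 35 to 26 bases before it. Of all 32851 RefSeq windows of this length, 6.75% held the AP-1 letters and 7.25% the NF-kappaB consensus. The Ccl3 window held a TATAA 11 to 7 bases before the start and a PU.1 match on the opposite strand 33 to 28 bases before it, letters found in 22.8% and 23.3% of windows. The letters TTATAA hold TATAA on both strands. The Ccl6 window held none of these, nor TTGCNNAA (bound by C/EBP factors, in 9.56% of windows). The longest run shared by the Ccl6 and Ccl9 windows was gccctccacttcc, 13 bases that begin 55 and 14 bases before the respective starts, and the other pairs of the 4 members with a window shared runs of 7 to 9 bases. The window of Ccl12 is the only other one used here, and it held TATAA 31 to 27 and GAGGAA 130 to 125 bases before the start.

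Library totals ran from 74562 UMIs in adult brain to 534219 in E12.5 brain, and the median UMIs per cell were 1511 in yolk sac, 1725 in E12.5 brain, 983 in E18.5 brain and 521 in adult brain. Levels are given as CPM, the usual unit for counts scaled to the total of their library. A UMI stands for 1 captured transcript end, so the values need no correction for transcript length. The summed level of 10 microglia markers was 14017 to 15956 CPM in E12.5 brain, 29075 to 33650 CPM at E18.5 and 49822 to 53126 CPM in the adult. In yolk sac it was 6053 to 7279 CPM, while 8 markers of border or yolk sac macrophages summed to 3821 to 6435 CPM against 91.9 to 287 CPM in E12.5 brain, so the yolk sac cells are called here by their tissue and not as microglia. All libraries of an age carry 1 subject number and come in pairs from 9 plates, so the spread that p-values rest on is the one between libraries and may be technical only. Because levels are sums over the cells of a library, fewer cells with a transcript and fewer transcripts per cell cannot be told apart from them, and shares of cells are given separately.

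The summed level of the chemokines was highest in the E18.5 brain, and their make-up differed between stages. All 7 together held 2244 CPM at E18.5, 1022 CPM in yolk sac, 529 CPM in the adult brain and 399.9 CPM in E12.5 brain, over the pooled cells of each group. Ccl3 gave 56.0% of these UMIs at E18.5, against 36.9% in E12.5 brain, 25.8% in yolk sac and 18.3% in the adult. Ccl6 was the first of the 7 in every other group, with 60.7% in the adult, 45.6% in E12.5 brain and 35.7% in yolk sac. By mean level Ccl3, Ccl4 and Ccl6 were highest at E18.5 and the other 4 members in yolk sac. Yolk sac cells had the most even mixture, with 19.4% from Ccl9 and 10.9% from Ccl2.

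Ccl3 and Ccl4, the macrophage inflammatory proteins, had their highest level at E18.5 and a low level before and after. Ccl3 stood at 172, 191, 103 and 39.4 CPM in the 4 libraries of E12.5 brain, and at 1112 (lowest), 1273 (median) and 1432 CPM (highest) over the 6 of E18.5. In the adult libraries it was at 60.3, 98.9, 52.0 and 201 CPM. Every E18.5 library was thus at 1112 CPM or more, and no other brain library passed 201 CPM. The E12.5 brain and adult libraries overlapped. Means ± SD were 126 ± 69.2 CPM in the 4 libraries of E12.5 brain, 1261 ± 118 CPM in the 6 of E18.5 and 103 ± 68.5 CPM in the 4 of the adult. From E18.5 to the adult Ccl3 fell by 3.64 on the log2 scale (SE 0.34, edgeR adjusted p = 6.28e-08), which brought it to 0.40 below E12.5 brain on that scale (SE 0.39, edgeR adjusted p = 0.452). In yolk sac Ccl3 was at 289, 218, 333 and 208 CPM, above all libraries of E12.5 and adult brain and below all of E18.5.

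Ccl4 was also highest at E18.5, at a lower level than Ccl3. It was at 40.5, 9.36, 17.1 and 0 CPM in the E12.5 brain libraries, at 116, 245 and 354 CPM (lowest, median, highest) at E18.5, and at 40.2, 121, 10.4 and 40.2 CPM in the adult. The lowest E18.5 library lay just under the highest adult library, so these groups overlapped, whereas E18.5 and E12.5 brain did not. Ccl4 fell by 2.16 on the log2 scale from E18.5 to the adult (SE 0.63, edgeR adjusted p = 0.0193). This call rested on single adult libraries, since the edgeR adjusted p was 0.0673 without adult replicate 1, 0.0625 without replicate 3 and 0.0564 without replicate 4. Without replicate 2, the highest, Ccl4 fell by 3.00. Yolk sac libraries held 29.6, 29.0, 113 and 37.1 CPM of Ccl4 and overlapped E12.5 brain, with a log2 fold change of 1.53 that did not pass (SE 0.66, edgeR adjusted p = 0.147). Without the highest E12.5 brain library, replicate 1, the log2 fold change was 2.53 and passed (edgeR adjusted p = 0.0232). The 16 UMIs of 1 cell made up 55.2% of all Ccl4 UMIs in E12.5 brain, and the 9 UMIs of 1 cell made up 47.4% in the adult.

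**Figure D1:**
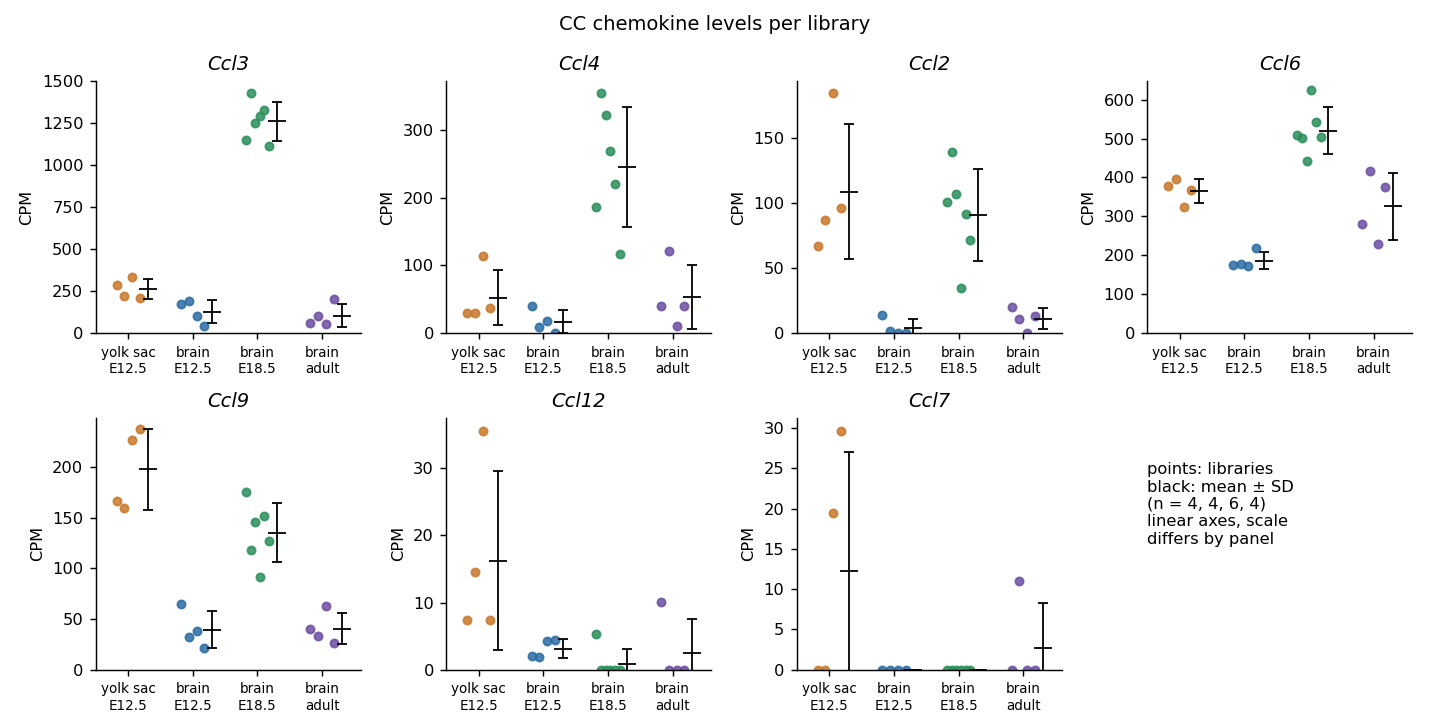
Level of each CC chemokine in CPM (vertical axes, linear, with a scale of its own in each panel) in the 18 libraries. Coloured points are libraries and black bars are the mean ± SD (n = 4, 4, 6 and 4), drawn down to 0 where the SD exceeds the mean. Ccl3 lies between 1112 and 1432 CPM in the 6 libraries of E18.5 brain and at 333 CPM or less in all others, while Ccl2 and Ccl9 are high in yolk sac and in E18.5 brain.

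Of the Ccr2 ligands only Ccl2 was common enough to test. Ccl2 was nearly absent from E12.5 brain, at 14.2, 1.87, 0 and 0 CPM, with 8 UMIs in 6 of 718 cells. Yolk sac libraries of the same age held 66.6, 87.1, 184 and 96.4 CPM, all above every E12.5 brain library. At E18.5 the lowest, median and highest libraries were at 34.4, 96.4 and 139 CPM, a range that overlaps that of yolk sac. In the adult it was at 20.1, 11.0, 0 and 13.4 CPM, from 4 UMIs in all, which overlaps E12.5 brain and lies below every E18.5 library. The fall from E18.5 to the adult was 2.93 on the log2 scale (SE 0.68, edgeR adjusted p = 0.00135). On summed counts the E18.5 level was 8.07 times that of the adult, with an exact 95% interval of 3.05 to 30.2 that covers counting error only.

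Ccl7 and Ccl12, the other Ccr2 ligands, held 15 and 25 UMIs in all and did not pass the filter on low counts, so they were not tested. Ccl7 was at 0, 0, 19.4 and 29.7 CPM in the yolk sac libraries and at 0 in all libraries of E12.5 and E18.5 brain. Both yolk sac libraries with Ccl7 belong to 1 sequencing batch, which holds no E12.5 brain library. Both at 0 belong to the batch shared with E12.5 brain. There Ccl7 was at 0 in both tissues, so tissue and batch cannot be told apart for Ccl7. Its 14 yolk sac UMIs came from 7 cells, 6 of them from 1 cell, and gave a level at least 6.18-fold higher than in E12.5 brain, computed against a floor of 3 counts over that group. This bound was 3.49 without yolk sac replicate 4, and 4.13 and 3.97 without E12.5 brain replicates 1 and 2. In the adult a single UMI put replicate 2 at 11.0 CPM. Ccl12 was at 7.40, 14.5, 35.6 and 7.42 CPM in yolk sac and at 2.02, 1.87, 4.28 and 4.38 CPM in E12.5 brain. It had 2, 4, 11 and 2 UMIs in these yolk sac libraries and 1 in each E12.5 brain library, too few to set single libraries apart. Its yolk sac level was 6.29 times that of E12.5 brain on summed counts (exact 95% interval 2.09 to 25.4), and 3.66 times without yolk sac replicate 3, which held 11 of the 19 UMIs. A single Ccl12 UMI was found at E18.5, and a single one in the adult.

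Ccl6 and Ccl9 are the Ccr1 ligands that are neighbours in the genome. In the adult Ccl6 lay above all E12.5 brain libraries, whereas Ccl9 lay within their range. Ccl6 was present in every library, at 176, 178, 171 and 219 CPM in E12.5 brain, at 377, 396, 324 and 367 CPM in yolk sac, and at 442, 507 and 625 CPM (lowest, median, highest) at E18.5. Adult libraries held 281, 418, 229 and 376 CPM of it. They overlapped yolk sac, lay below every E18.5 library and lay above every E12.5 brain library. From E18.5 to the adult Ccl6 fell by 0.65 on the log2 scale (SE 0.19, edgeR adjusted p = 0.00901), and the edgeR adjusted p was 0.0593 without adult replicate 3, the lowest. It was 0.83 above E12.5 brain (SE 0.21, edgeR adjusted p = 0.00129), a difference that did not pass with sequencing batch as a covariate (0.88, edgeR adjusted p = 0.0514).

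Ccl9 was highest in yolk sac, at 167, 159.7, 226 and 237 CPM, against 64.7, 31.8, 38.6 and 21.9 CPM in E12.5 brain. At E18.5 its lowest, median and highest libraries were at 91.7, 136 and 175 CPM, overlapping yolk sac. In the adult it was back at 40.2, 33.0, 62.3 and 26.8 CPM, within the range of E12.5 brain. The fall after E18.5 was 1.67 on the log2 scale (SE 0.37, edgeR adjusted p = 0.000926), and the difference between adult and E12.5 brain was 0.05 (SE 0.43, edgeR adjusted p = 0.978). The adult level of Ccl6 thus exceeded that of E12.5 brain while that of Ccl9 did not pass the test, though the difference between these effects was not itself tested.

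Yolk sac cells had more of most tested members than brain cells of the same age. In yolk sac against E12.5 brain 4 of the 5 tested members were higher, and 7.04% of the 4883 tested genes were called higher. The log2 fold changes were 4.30 for Ccl2 (SE 0.53, edgeR adjusted p = 4.66e-08), 2.30 for Ccl9 (SE 0.28, edgeR adjusted p = 3.04e-08), 1.02 for Ccl6 (SE 0.19, edgeR adjusted p = 5.31e-05) and 1.02 for Ccl3 (SE 0.29, edgeR adjusted p = 0.0181). The libraries of these 4 members did not overlap between the groups, as those of 8.36% of tested genes did not in this direction. Without E12.5 brain replicate 1 the log2 fold change of Ccl2 was 6.15. The Ccl3 call was lost without E12.5 brain replicate 3 (edgeR adjusted p = 0.0508) or yolk sac replicate 3 (0.0635). One sequencing batch held libraries of both groups, 2 of each, and there Ccl3 was at 289 and 218 CPM in yolk sac against 103 and 39.4 CPM in brain, and Ccl2 at 66.6 and 87.1 CPM against 0 and 0. In a fit of those 4 libraries alone, chosen after seeing the data, the log2 fold change of Ccl3 was 1.83, that of Ccl6 1.00 and that of Ccl9 2.43. The summed markers of border or yolk sac macrophages differed between these groups too, as given above, and their part in the result was not tested.

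All 5 tested members were higher at E18.5 than in E12.5 brain, where 11.1% of tested genes were called higher. The log2 fold changes were 3.98 for Ccl2 (SE 0.53, edgeR adjusted p = 4.01e-07), 3.66 for Ccl4 (SE 0.57, edgeR adjusted p = 0.000124), 3.24 for Ccl3 (SE 0.28, edgeR adjusted p = 2.04e-08), 1.71 for Ccl9 (SE 0.28, edgeR adjusted p = 1.08e-05) and 1.48 for Ccl6 (SE 0.18, edgeR adjusted p = 2.13e-08). No library of one group overlapped the other for any of them, against 8.11% of tested genes. Without E12.5 brain replicate 1, which held 7 of the 8 Ccl2 UMIs of its group, the log2 fold change was 5.85 for Ccl2 and 4.68 for Ccl4. The 2 ages share no sequencing batch, so age, gate and batch cannot be told apart by a comparison within a batch. A fit with batch as a covariate, which rests on the yolk sac libraries, called 3 of the 5. Ccl4 (log2 fold change 3.30, edgeR adjusted p = 0.179) and Ccl9 (1.59, edgeR adjusted p = 0.0516) did not pass there.

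From E18.5 to the adult all 5 fell, and 11.2% of tested genes were called lower. Apart from Ccl4 their libraries did not overlap between the ages, against 9.13% of tested genes in this direction. All libraries of both ages belong to 1 sequencing batch. The summed level of 9 granulocyte lineage markers was 230 to 1272 CPM at E18.5 and 2495 to 9439 CPM in the adult, with S100a8, S100a9, Ngp and Ltf at 0 there, and its part in the result was not tested. Against E12.5 brain 1 of the 5 members, Ccl6, was higher in the adult, where 17.8% of tested genes were called higher, so this count is near the background. Ccl2 (log2 fold change 1.05, SE 1.01, edgeR adjusted p = 0.433) and Ccl4 (1.50, SE 0.84, edgeR adjusted p = 0.172) did not pass, though Ccl4 did without E12.5 brain replicate 1 (2.51, edgeR adjusted p = 0.0294). The median log2 fold change of the tested members was 1.53 in yolk sac against E12.5 brain, 3.24 at E18.5 against E12.5 brain, −2.16 in the adult against E18.5 and 0.83 in the adult against E12.5 brain. Over all tested genes the medians were −0.05, −0.03, −0.03 and −0.07 in that order. The comparisons share groups of libraries, so these values are set side by side only.

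Shares of cells were compared as the share with at least 1 UMI after each cell had been thinned at random to 300 UMIs, the minimum depth of a kept cell. At a fixed depth this share still rises with the transcripts per cell as well as with the number of cells that hold any. Ccl3 was found in 23.1% ± 3.77 of E18.5 cells (SD, n = 6), in 2.08% ± 1.22 of E12.5 brain cells, 3.22% ± 1.56 of adult cells and 5.35% ± 1.20 of yolk sac cells (SD, n = 4 each). The lowest E18.5 library was at 18.5% and the highest adult library at 5.44%. The next most widespread member at E18.5 was Ccl6, in 12.7% ± 2.53 of cells. In the other groups Ccl6 was the most widespread, in 9.73% ± 1.73 of adult cells, 9.33% ± 2.58 of yolk sac cells and 4.73% ± 1.96 of E12.5 brain cells. Ccl6 was therefore in more adult cells than Ccl3 in each of the 4 adult libraries, and in fewer E18.5 cells in each of the 6.

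The remaining members were found in few cells at this depth. Ccl9 was in 5.07% ± 1.03 of yolk sac cells, 4.46% ± 1.95 of E18.5 cells, 1.40% ± 0.381 of E12.5 brain cells and 0.788% ± 0.294 of adult cells. Ccl4 was in 4.87% ± 1.17 of E18.5 cells and at most 1.21% ± 0.903 elsewhere, in yolk sac. Ccl2 was in 2.40% ± 1.78 of E18.5 cells, 2.26% ± 1.37 of yolk sac cells and 0.477% ± 0.594 of adult cells. It was in 0 of 718 E12.5 brain cells at this depth and in 6 of them (0.836%) without thinning. Ccl12 reached 1.06% ± 0.915 of yolk sac cells, and Ccl7 was left in 1 adult cell, and in yolk sac in 0 of 671 cells at this depth and in 7 of them (1.04%) without thinning.

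Of the 28 comparisons of shares, 7 members in 4 contrasts, 8 passed after Benjamini-Hochberg adjustment, each with an exact two-sided permutation p = 0.00952 (adjusted p = 0.0333), the smallest that 6 libraries against 4 allow. They were the rises of Ccl2, Ccl3, Ccl4, Ccl6 and Ccl9 from E12.5 to E18.5 and the falls of Ccl3, Ccl4 and Ccl9 from E18.5 to the adult. The shares of these 8 did not overlap between the groups, which held for 4.32% of the 4883 tested genes among rises to E18.5 and for 5.92% among the later falls. Adjusted over all tested genes instead, none of the 8 passed (exact permutation test, adjusted p = 0.103 for the rises and 0.0973 for the falls). Permuting single libraries also counts those of a plate, always of the same group, as separate replicates. The falls of Ccl2 and Ccl6 did not pass (exact p = 0.0571, adjusted p = 0.1). Some of these calls turned with the depth per cell. Without thinning the falls of Ccl2 and Ccl6 passed (exact test, adjusted p = 0.0333 each), and the rises of Ccl6 (0.0889) and Ccl9 (0.157) did not. At 500 UMIs both falls passed (exact test, adjusted p = 0.0296 each), and the rise of Ccl9 did not (0.0615). With 4 libraries against 4 the smallest exact p is 0.0286. Shares of Ccl2, Ccl3, Ccl4 and Ccl9 that did not overlap between yolk sac and E12.5 brain reached it without passing (adjusted p = 0.0571). Shares of 4.98% of tested genes were apart in this direction. Those of Ccl3 and Ccl4 overlapped at 500 UMIs (exact permutation p = 0.0857 and 0.314) and without thinning (0.171 and 0.343), whereas those of Ccl2 and Ccl9 did not. Ccl4 and Ccl6 in the adult against E12.5 brain also reached an exact permutation p of 0.0286 (adjusted p = 0.0571), where shares of 506 of the 4883 tested genes were apart in this direction. These 2 depended on depth as well. The differences were −0.05 and −7.91 percentage points without thinning, and at 500 UMIs the shares overlapped (exact permutation p = 0.914 and 0.343). Without thinning, Ccl3 was found in 49.1% ± 3.67 of E18.5 cells, 19.5% ± 4.54 of yolk sac cells, 12.2% ± 7.15 of E12.5 brain cells and 4.67% ± 1.96 of adult cells, with the median depths per cell given above.

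**Figure D2:**
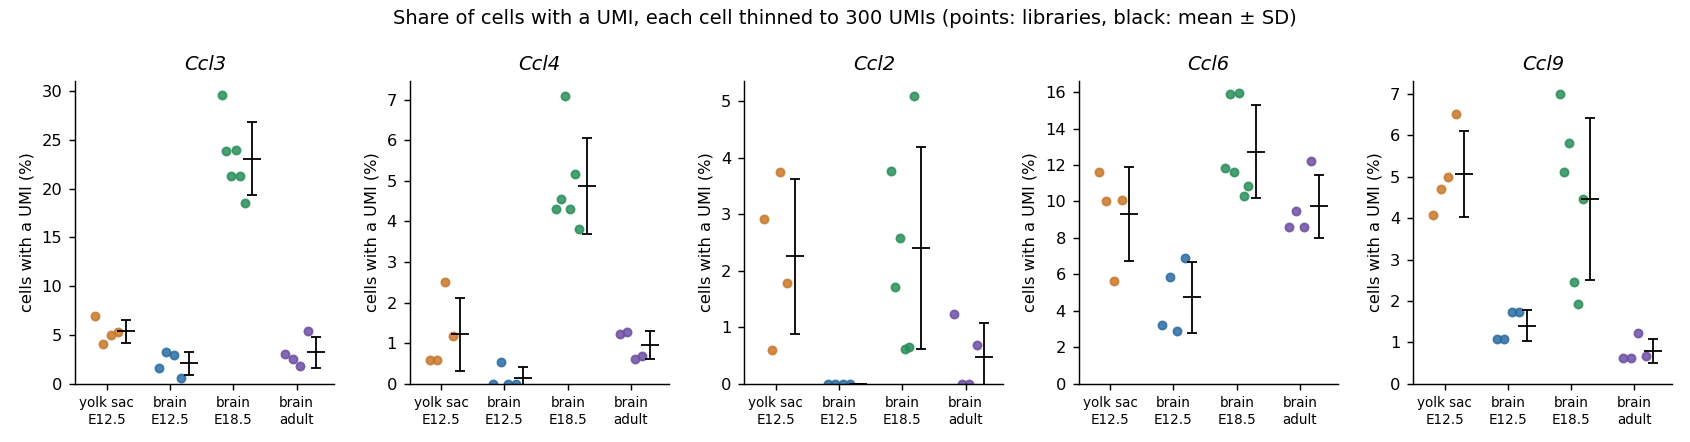
Share of cells with at least 1 UMI (%, linear vertical axes with a scale of its own in each panel) after every cell was thinned to 300 UMIs, for the 5 tested members. Points are libraries and black bars the mean ± SD (n = 4, 4, 6 and 4). Ccl3 lies between 18.5% and 29.6% in the E18.5 libraries and no other library passes 6.98%, while the Ccl6 shares of adult and E18.5 libraries overlap.

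The UMIs of a chemokine were not spread evenly over the cells that could hold them. At E18.5 the 1336 Ccl3 UMIs lay in 486 cells, with up to 40 UMIs in a cell and 73 cells at 5 or more. The 253 Ccl4 UMIs lay in 106 cells, with up to 16 in a cell and 12 cells at 5 or more. In contrast the 145 Ccl9 UMIs lay in 122 cells with no more than 3 in any. In yolk sac 7 of the 56 cells with Ccl2 had at least 5 UMIs, with a highest value of 10.

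The number of positive cells was set against the number expected if each UMI had fallen on the cells of its library in proportion to their depth. This is a description without a test, and a ratio under 1 means that the UMIs were gathered in fewer cells. The ratio was not computed for other genes, so gathering is not shown to be particular to chemokines. It can lie near 1 where UMIs are few, as for Ccl2 in the adult (1.01 from 4 UMIs). For Ccl4 at E18.5 it was 106 cells against 216 expected, a ratio of 0.490, and all 6 libraries were below expectation. Ccl3 had 486 against 688 cells at E18.5 (0.706, 6 of 6 libraries) and 89 against 170 in E12.5 brain (0.523, 4 of 4). Ccl2 had 56 against 108 cells in yolk sac (0.517, 4 of 4) and 63 against 89.3 at E18.5 (0.705, 6 of 6). Ccl9 was the most evenly spread of the tested members at E18.5, with 122 cells against 132 (0.922, 5 of 6 libraries below). Ccl6 lay between, at 0.792 at E18.5, 0.758 in E12.5 brain, 0.704 in yolk sac and 0.872 in the adult.

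**Figure D3:**
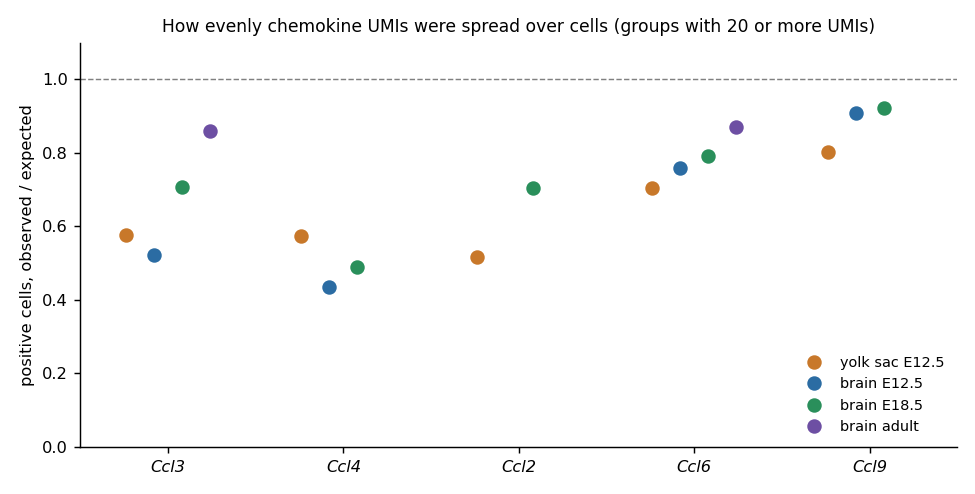
Observed cells with a UMI divided by the number expected if UMIs followed cell depth within each library (vertical axis, a ratio without unit), for each member and group with at least 20 UMIs. Points are groups and the dashed line at 1.0 marks an even spread. Ccl4 lies at 0.574 or lower in the 3 groups shown, and Ccl9 between 0.803 and 0.922.

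Most cells with a chemokine held 1 of the 7. Without thinning, 30.6% of E18.5 cells held none, against 44.6% in yolk sac, 64.3% in E12.5 brain and 78.6% in the adult, and these shares follow depth as well as level. At E18.5 there were 374 cells with 1 member, 231 with 2, 70 with 3, 12 with 4 and 1 with 5. In yolk sac 1 cell held 6 of the 7.

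Ccl3 and Ccl4 were found together in more cells than expected. At E18.5 and without thinning, 77 cells held both against 52.1 expected within libraries. Ccl3 was found in 72.6% of Ccl4-positive and 46.2% of Ccl4-negative cells, and was more frequent in the positive cells in 6 of 6 libraries. By library its share was 70.0, 58.8, 87.5, 60.0, 94.4 and 66.7% in Ccl4-positive cells, and between 42.1 and 49.6% in Ccl4-negative cells. After thinning to 300 UMIs the shares were 52.1 and 21.8%, with 25 cells holding both against 11.1 expected, and 5 of 6 libraries went that way. Replicate 4, with 1 such cell, did not. Cells positive after thinning had been sequenced to a median of 1009.5 UMIs for Ccl4, against 980.5 in negative cells. In yolk sac 18 cells held both against 7.32 expected without thinning, with Ccl3 in 56.2% of Ccl4-positive and 17.5% of Ccl4-negative cells (4 of 4 libraries).

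Ccl6 and Ccl9 were found together in yolk sac cells. Without thinning, 72 cells held both against 43.9 expected, and Ccl6 was found in 49.7% of Ccl9-positive cells against 24.9% of the others. The libraries gave 51.6, 59.5, 45.7 and 42.9% in positive cells against 23.4, 25.6, 27.2 and 23.6% in negative cells, without overlap. In E12.5 brain 18 cells held both against 13.2 expected (4 of 4 libraries), and at E18.5 51 against 39.6 (5 of 6). After thinning, yolk sac kept 4 cells with both against 3.17 expected (3 of 4 libraries), and E18.5 brain 9 against 5.72 (4 of 6). With so few cells the pair could not be told from the expectation at this depth.

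Ccl2 showed no single pattern with the other members. After thinning, 5 E18.5 cells held Ccl2 and Ccl4 against 1.12 expected, but only 3 of 6 libraries went that way. In the same cells 0 held Ccl2 and Ccl9 against 1.28 expected. Without thinning these were 10 against 6.67 and 5 against 8.15, and yolk sac gave 20 cells with Ccl2 and Ccl3 against 11.6 (4 of 4 libraries). Yolk sac cells with Ccl2 and Ccl4 numbered 10 against 3.64, all of them in 2 of 4 libraries, and those with Ccl2 and Ccl6 19 against 17.0. Ccl3 was also more frequent at E18.5 in cells with Ccl6 (60.1 against 43.7%, 6 of 6 libraries) and with Ccl9 (62.3 against 47.1%, 6 of 6). In cells with and without Ccl2 it was at 54.0 and 48.7% (4 of 6). Deeper cells show more of every transcript, and after thinning the number of cells with Ccl6 and Ccl3 was 36 against 29.8 expected (4 of 6), and with Ccl9 and Ccl3 12 against 10.8 (3 of 6).

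**Figure D4:**
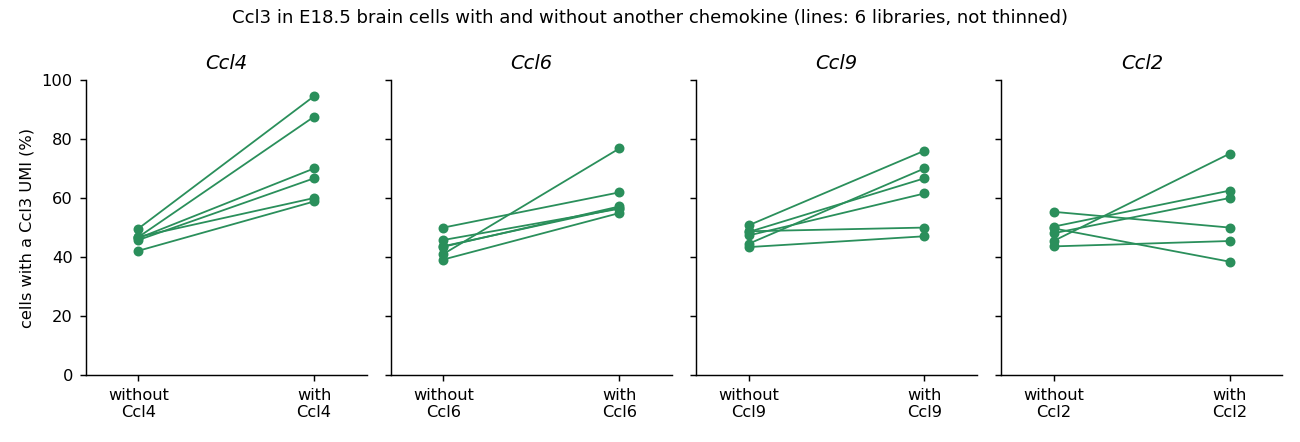
Share of E18.5 brain cells with a Ccl3 UMI (%, vertical axis) among cells without and with each of Ccl4, Ccl6, Ccl9 and Ccl2, at full depth. Each line joins the 2 values of 1 of the 6 libraries. All 6 lines rise for Ccl4, Ccl6 and Ccl9, and 4 of 6 rise for Ccl2.

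Of the receptors of these chemokines, Ccr1, Ccr2 and Ccr3 had few UMIs. In E12.5 brain and yolk sac Ccr1 was at 9.98 ± 5.70 and 6.36 ± 8.26 CPM and Ccr2 at 0.974 ± 1.13 and 5.52 ± 4.77 CPM (SD, n = 4 each), and neither had a UMI at E18.5 or in the adult. Ccr3 had a mean of 0.925 CPM in yolk sac and no UMI elsewhere. These 3 did not pass the filter on low counts. A floor of 3 counts stood for 2.82 CPM at E18.5 and 8.30 CPM in the adult. A level like that of Ccr2 in E12.5 brain could thus be missed at both ages, and that of Ccr1 lay near the adult floor.

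Of 22 chemokine receptor symbols in the list 18 had a row and 2 were tested. In yolk sac Cxcr2 and Cx3cr1 were lower than in E12.5 brain, as were 8.81% of all tested genes. At E18.5 Cx3cr1 was higher than in E12.5 brain, as were 11.1% of all tested genes. The reporter marks cells that express Cx3cr1, and it was part of the sort at E12.5 only, so age and gate cannot be told apart for this gene. Cxcr2, a receptor of CXC chemokines, was at 2.54, 40.6, 72.7 and 6.10 CPM in yolk sac, E12.5 brain, E18.5 brain and adult brain. It fell by 3.55 on the log2 scale after E18.5 (SE 0.78, edgeR adjusted p = 0.000731), the only one of the 2 called lower in that interval. Of 11 rows of other CC chemokines 1 was tested, Ccl5, a chemoattractant of T cells and the neighbour of Ccl9 in the genome. It was at 3.21 ± 6.43 CPM in E12.5 brain, 57.7 ± 31.8 CPM at E18.5 and 0 in all 4 adult libraries, and rose by 4.42 on the log2 scale from E12.5 to E18.5 (SE 0.99, edgeR adjusted p = 0.00213). Ccl24 was not tested and had 98.8 ± 85.1 CPM in yolk sac against 12.8 CPM in E12.5 brain, and 6 of the 11 rows had no UMI in any group.

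Lists of genes that act on the transcription and decay of chemokine messages were counted over the same intervals. Of 20 immediate early genes, which respond first to a stimulus and include the AP-1 factors, 15 were tested. Between E12.5 and E18.5 13 of the 15 rose, against the 11.1% of all tested genes called higher there. From E18.5 to the adult 6 rose, 1 fell and 8 passed in neither direction, where 10.3% of all tested genes were called higher and 11.2% lower. Fos, Fosb, Egr1 and Dusp1 had the largest rises to E18.5. Fos went from 6.39 to 1189 and 1258 CPM over E12.5, E18.5 and adult brain, and its later log2 fold change was 0.11 (SE 0.20, edgeR adjusted p = 0.75). Btg2, Jund, Jun and Ier5 had the largest rises to the adult, Jun from 921 ± 201 to 2620.3 ± 593 CPM, up by 1.54 on the log2 scale (SE 0.22, edgeR adjusted p = 1.48e-05). The one to fall was Ier3, a survival factor induced by NF-kappaB, from 192 ± 32.7 to 94.7 ± 28.8 CPM, or −0.96 on the log2 scale (SE 0.29, edgeR adjusted p = 0.0134).

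Of 19 genes of the NF-kappaB pathway and its feedback 11 were tested. Between E12.5 and E18.5 1 rose and 1 fell, which is near the background of 11.1% of tested genes called higher and 13.4% lower. From E18.5 to the adult 4 of the 11 rose (Nfkbia, Nfkbib, Rela and Nfkb1), where 10.3% of tested genes did, and the other 7 passed in neither direction. Nfkbia, the inhibitor that NF-kappaB itself induces, was at 73.6 ± 15.3, 156 ± 68.0 and 633 ± 165 CPM over the 3 stages, a log2 fold change of 2.04 in the later interval (SE 0.25, edgeR adjusted p = 2.77e-08). Relb did not pass in that interval (1.44, SE 0.56, edgeR adjusted p = 0.0601). Of 4 genes that act on the decay of chemokine transcripts Zfp36, Zfp36l1 and Zfp36l2, which bind AU-rich elements and promote decay, rose in both intervals, and Elavl1, which stabilises such transcripts, did not pass in either. Zfp36l2 was at 30.4 ± 11.6, 75.2 ± 31.7 and 335 ± 49.2 CPM over the 3 stages (edgeR adjusted p = 5.44e-07 for the later interval). Of 10 inflammatory cytokine genes 2 were tested. The row that joins the histone gene H1f0 with Icam1, an adhesion molecule, rose to E18.5 and its counts cannot be assigned to either gene (log2 fold change 0.65, SE 0.18, edgeR adjusted p = 0.00768), and Il18 did not pass (0.90, SE 0.43, edgeR adjusted p = 0.119). Tnf held a mean of 16.9 CPM at E18.5 and Il1b no UMI.

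In yolk sac against E12.5 brain 4 of the 15 tested immediate early genes were higher (Fos, Ier2, Jun and Klf6). Of the 11 tested genes of the NF-kappaB list 2 were higher (Bcl3 and Myd88). Of all tested genes 7.04% were called higher there. Bcl3, a nuclear cofactor of NF-kappaB, was at 103 ± 18.1 against 23.0 ± 9.78 CPM (SD, n = 4 each; log2 fold change 2.25, SE 0.44, edgeR adjusted p = 0.00013).

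**Figure D5:**
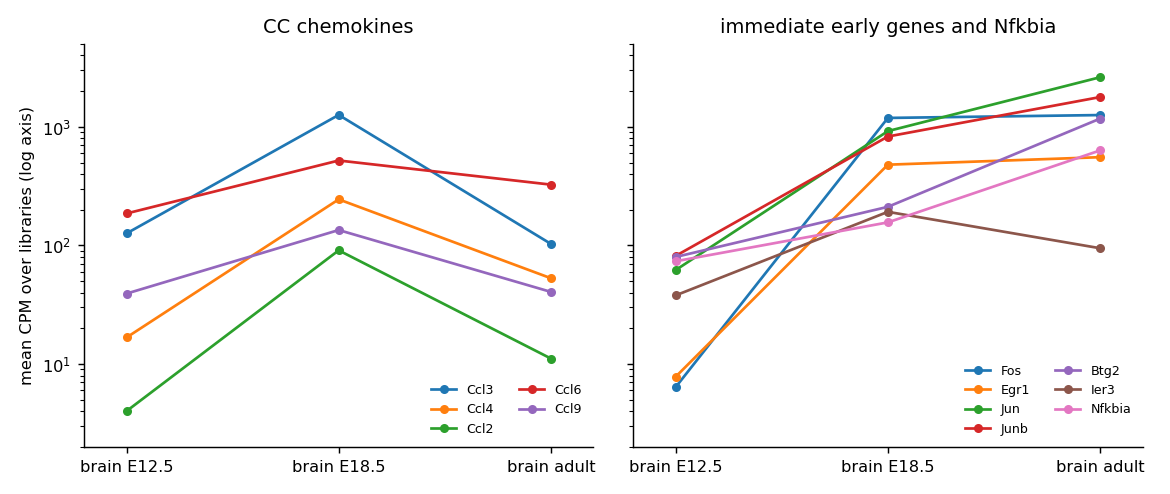
Mean CPM over libraries (vertical axis, logarithmic) at E12.5, E18.5 and in adult brain, for 5 chemokines on the left and for 6 immediate early genes and Nfkbia on the right. Points are group means over 4, 6 and 4 libraries joined by lines, and their spread is given in the text. The 5 chemokine lines peak at E18.5, whereas among the genes selected for the right Ier3 is the one line with a lower adult than E18.5 mean. Other immediate early genes that are not drawn, such as Atf3 and Klf2, had lower adult means too.

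The same lists were set against the chemokines within cells, as a description. At E18.5 and after thinning, the immediate early list held 1.81 UMIs per Ccl3-positive and 1.73 per Ccl3-negative cell (higher in 4 of 6 libraries), the NF-kappaB list 0.372 against 0.322 (5 of 6) and the microglia markers 9.03 against 9.52 (2 of 6). The 24 cells with Ccl2 and the 45 with Ccl9 at E18.5 held no UMI of the border or yolk sac macrophage list, found in 4.86 and 4.96% of the cells without them. At such rates very few of 24 or 45 cells would hold one, so the zeros do not set these cells apart. In yolk sac the immediate early list held 0.639 UMIs per Ccl3-positive cell (36 cells) and 0.288 per negative cell, higher in 4 of 4 libraries. Of these cells 41.7 against 22.8% had a UMI of the list. Yolk sac cells with Ccl6 held 0.492 against 0.288 UMIs of the list (4 of 4 libraries). These contrasts are taken from several lists, members and groups that were looked at without a test.

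Yolk sac cells with Ccl6 or Ccl9 held a lower sum of the border or yolk sac macrophage list than the rest. The list had 1.16 UMIs per Ccl6-positive and 1.63 per Ccl6-negative cell, and 1.21 per Ccl9-positive and 1.61 per Ccl9-negative cell, lower in the positive cells in 4 of 4 libraries for each. For Ccl6 this was carried by 1 gene, the platelet factor Pf4, at 0.460 against 1.04 UMIs (lower in 4 of 4 libraries), a split made after seeing the data. The other 7 genes went the other way, at 0.698 against 0.586 UMIs (higher in 3 of 4), and the share of cells with a UMI of the whole list was 66.7 against 67.3%. For Ccl9 both parts were lower, Pf4 at 0.824 against 0.998 and the others at 0.382 against 0.608 (3 of 4 libraries each). Thinning holds all cells at 300 UMIs, and these values are means over 63 and 34 positive cells without a test.

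Genes whose level over the 18 libraries went most closely with each member were named by Pearson correlation of log2 CPM. This is a description, since the libraries fall into 4 groups of tissue and age and share plates. Grn, the precursor of granulins, was the nearest to Ccl3 (r = 0.93), at means of 3239, 2506, 4339 and 2674 CPM in yolk sac, E12.5, E18.5 and adult brain. Slc25a45 (r = 0.92) and the lysosomal protease Ctsl (r = 0.89) came next, Ctsl at means of 564, 682, 2773 and 292 CPM. For Ccl4 they were the protease Ctsb (r = 0.85), Ier3 (0.84) and Grn (0.84). For Ccl2 they were the proteoglycan Sdc4 (r = 0.93, at 199.6, 21.8, 222 and 61.4 CPM), Cmtm3 (0.82) and Grn (0.79). Ccl6 went with the lysosomal membrane protein Lamp1 (r = 0.90), Sdc4 (0.88) and Sepp1 (0.83), and Ccl9 with the ligand Gas6 (r = 0.89), Osbpl11 (0.87) and the mannose receptor Mrc1 (0.87).

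Within E18.5 cells, 802 genes were compared between cells with and without Ccl3 after thinning. The 5 with the largest mean difference in share over libraries were Cd9, Gas6, Ctsl, Pld4 and Macf1. The tetraspanin Cd9 was found in 36.3% of Ccl3-positive and 23.3% of Ccl3-negative cells (5 of 6 libraries), Ctsl in 54.3 and 46.8% (6 of 6) and Gas6 in 35.1 and 26.7% (5 of 6). Ctsl was thus near Ccl3 by both measures. For Ccl4, with 48 positive cells, the 5 were Hsp90b1, Lrp1, Aes, Cox4i1 and Ldha. Aes, a corepressor, was found in 24.0 against 7.71% (6 of 6 libraries) and Hsp90b1, a chaperone of the endoplasmic reticulum, in 51.4 against 30.7% (4 of 6). Being the largest of 802 differences, these are descriptions without a test. Each was examined in the group of its highest mean level, which for Ccl2 was yolk sac. With 15 positive cells there, below the minimum of 20, Ccl2 was left out.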

How the data were processed

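The authors deposited whole-number UMI counts per gene row and well, not normalized, with a table of wells. Per the submitters' processing notes bcl2fastq 2.15.0.4 and build mm9 were used. The sources used here name neither the aligner nor how UMIs were collapsed. No row passed 256 counts in a well, and no member 40. Wells annotated with 1 sorted cell and holding at least 300 UMIs were kept, 3012 of 3420. The 36 empty wells held at most 80 UMIs. Every well is listed once, so no cell is shared between libraries, and doublets were not called, since wells had been sorted with single cells. No rows of other series were present and no row lacked a gene name.

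Libraries were grouped by tissue and age as the labels give them. Counts of kept cells were summed per library and tested with edgeR 4.0.16 (limma 3.58.1, R 4.3.3), using TMM factors, filterByExpr, a robust quasi-likelihood fit of all 18 libraries and Benjamini-Hochberg adjustment over 4883 tested genes. Genes passed at an adjusted p under 0.05. No pair of replicate libraries agreed within sampling noise (chi-square per degree of freedom 1.44 to 4.60), so none were merged. Shares of cells were compared over libraries by two-sided exact permutation tests (scipy 1.17.1) after 1 seeded random thinning to 300 UMIs. Co-expression was described for pairs with at least 20 positive cells of each member. Expected numbers of positive cells were summed over cells from the library's UMIs of the member and each cell's depth, assuming Poisson counts. A floor of 3 counts and 95% exact intervals cover counting error only. The scripts were tested on simulated data.

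The members, gene lists and rules were chosen with earlier results of these data known. Genes named outside the members were, for each member above 50 CPM in some group, the 3 with the highest correlation over libraries, the 5 with the largest difference in share within E18.5 cells for Ccl3 and Ccl4, called list members with the largest changes and 1 that did not pass, and the receptors Ccr1, Ccr2 and Ccr3. One receptor gene is not reported here. Symbols named to identify small counts were chosen after their values were seen. Alternatives were RLE scaling, DESeq2 1.42.0, no filter, only the compared groups, cells of at least 500 UMIs, sums per plate, sequencing batch as a covariate, thinned libraries and leaving out each library.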

Additional observations from a re-analysis of the deposited data

Results flagged for a closer look

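Among groups of 4 to 6 libraries, 1 library lay far from the rest of its group, by Dixon's criterion on CPM, in 6 of 26 member and group combinations with a UMI. In 3 of the 6 the group held a single UMI, so the criterion was met by construction. For groups with counts in several libraries chance alone gives about 1 in 20. Ccl2 reached 14.2 CPM in replicate 1 of E12.5 brain, where the other libraries were at 1.87 CPM or 0. Ccl4 reached 113 CPM in replicate 3 of yolk sac, which also had the highest Ccl2, Ccl3 and Ccl12 of its group. Ccl6 reached 219 CPM in replicate 4 of E12.5 brain. The 3 that rest on single UMIs were Ccl7 at 11.0 CPM and Ccl12 at 10.1 CPM in the adult and Ccl12 at 5.31 CPM at E18.5.

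The 408 single-cell wells under 300 UMIs, which entered no comparison, held chemokine UMIs above the 51.5 CPM that a count of 3 gives. In their 58264 UMIs Ccl3 was at 549 CPM, Ccl6 at 360.4 CPM, Ccl9 at 154 CPM and Ccl2 at 68.7 CPM. The 36 empty wells held 1 Ccl6 UMI and none of the other members.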

How the results depend on the processing

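Of 516 refitted log2 fold changes of single members, 487 kept their direction and their side of the threshold, 18 lost the call, 3 gained it and 8 reversed. RLE scaling and DESeq2 changed no call on a member. The reversed values all concern the adult against E12.5 brain and did not pass under any setting run. They were 0.33 with batch as a covariate and 0.029 in thinned libraries for Ccl3, and −0.20 without a filter, −0.16 at 500 UMIs per cell, −0.077 with batch as a covariate, −0.12 and −0.08 without E12.5 brain replicates 2 and 4 and −0.22 without adult replicate 3 for Ccl9. Over all libraries left out in turn the Ccl9 value ran from −0.22 to 0.44, the others keeping their direction. In libraries thinned to the smallest total, where Ccl2 was not tested and fewer counts remain, the members called were 1 of 4 in yolk sac against E12.5 brain, 1 in the adult against E18.5 and 0 in the adult against E12.5 brain (edgeR adjusted p = 0.201 for Ccl6). With batch as a covariate they were 3 at E18.5 against E12.5 brain and 0 in the adult against E12.5 brain, where the unfiltered fit also called 0 (edgeR adjusted p = 0.0507 for Ccl6). Leaving out 1 library gave 3 to 5 in yolk sac, 5 at E18.5, 3 to 5 in the adult against E18.5 and 1 to 2 in the adult against E12.5 brain. Single calls that were lost elsewhere were Ccl3 in yolk sac with only the compared groups (edgeR adjusted p = 0.0588), where Ccl4 was not tested, and Ccl4 in the adult against E18.5 at 500 UMIs (0.0517). Ccl4 in yolk sac passed without a filter (0.00806). Requiring 2 UMIs per cell, 0 of 28 share comparisons passed, with 3 at an unadjusted exact p under 0.05, against 8 and 14 at 1 UMI, 8 and 12 without thinning and 9 and 13 at 500 UMIs. Co-expression lay above expectation in 10 of 14 pairs thinned and 21 of 24 not thinned. Over all genes, calls higher and lower were 344 and 430 in yolk sac against E12.5 brain, 543 and 652 at E18.5 against E12.5 brain, 503 and 547 in the adult against E18.5, and 870 and 1013 in the adult against E12.5 brain. In the same order they were 88 and 112, 174 and 112, 110 and 171, and 307 and 322 in thinned libraries. They were 232 and 261, 352 and 308, 291 and 407, and 818 and 888 summed per plate. With batch as a covariate they were 246 and 274, 148 and 184, 578 and 662, and 356 and 554. Without a filter 364 and 784 were called in the adult against E18.5. The cause of these changes was not tested. No paired analysis was possible because the labels number no replicates within groups, and the numbers used here follow accession order only. Adult cells hold the fewest UMIs, so low members such as Ccl2, Ccl7 and Ccl12 are least precise there.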
